A study of Mus musculus with 4 samples.

Results

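Drd1 and Drd2, the genes of the dopamine D1 and D2 receptors, were 2 of the 383 genes measured in sections of the mouse striatum by MERFISH, a multiplexed form of in situ hybridization. They were taken from the gene panel by name. Each of 4 coronal brain sections of 10 µm held both striata. The Young group had 2 sections from mice aged 2 months, and the Aged group had 2 sections from mice aged 18 months. No strain, sex or treatment is named in the sample labels used here. Whether the sections of a group came from separate mice is not given there either, so p-values measure only the spread between sections. MERFISH images single RNA molecules in the tissue and assigns each one to a gene by its barcode and to a cell by segmentation. Of 320663 segmented cells, 281824 had at least 10 detected genes and a volume of at least 50 µm³ and were kept. Each section held 68011 to 74624 of these cells and 18765491 to 36035355 transcripts. The median per cell was 400 and 325 transcripts in young sections and 215 and 293 in aged sections, so both aged sections were shallower than both young sections.

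Dopamine acts on striatal neurons through both receptors. The D1 receptor couples to stimulatory G proteins and raises cAMP, and the D2 receptor couples to inhibitory G proteins and lowers it. Most striatal neurons are medium spiny neurons. Those of the direct pathway are known for Drd1, and those of the indirect pathway for Drd2 and for Penk, the precursor of enkephalin peptides. Drd2 is also known from cholinergic interneurons of the striatum, and Drd1 from deep layers of the cortex and from the granule cells of the islands of Calleja.

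The receptors lie on different chromosomes, and because they were found mainly in different cells, the sequence just before each gene's start is shown for comparison. In RefSeq on the GRCm38.p6 build, Drd1 spans chr13:54051183-54055658 on the minus strand and Drd2 spans chr9:49340360-49408177 on the plus strand. The sequences below run 5′ to 3′ on the strand of the gene and cover 200 bases each, at chr13:54055709-54055908 for Drd1 and chr9:49340153-49340352 for Drd2. The Drd1 window lies from 250 to 51 bases before the start given above. The Drd2 window lies closer to the start given above, so the windows are not at the same distance from these starts. Capitals mark matches to the GC box letters GGGCGG or to their reverse complement CCGCCC.
Drd1: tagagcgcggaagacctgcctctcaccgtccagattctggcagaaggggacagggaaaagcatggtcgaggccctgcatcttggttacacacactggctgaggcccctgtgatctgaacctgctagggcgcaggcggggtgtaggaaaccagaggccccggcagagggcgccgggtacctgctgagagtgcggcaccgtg
Drd2: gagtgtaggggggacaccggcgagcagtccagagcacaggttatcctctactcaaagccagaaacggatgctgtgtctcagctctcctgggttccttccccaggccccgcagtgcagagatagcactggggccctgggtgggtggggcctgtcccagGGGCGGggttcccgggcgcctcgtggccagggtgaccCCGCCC
The Drd2 window held 2 such matches, which did not overlap, and the Drd1 window held 0. Of 32851 windows of the same length, 24.6% held at least 1. Neither window held TATAAA (9.14% of windows) or TGACG, the core of a cAMP response element (12.7% of windows), on either strand. GC content was 63.5% for Drd1 and 67.5% for Drd2, against a median of 51.5% over all windows. These matches describe letters only, and binding of any factor was not measured.

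Cell classes were rebuilt from marker genes, with Drd1, Drd2, Penk and Gpr6 left out of the clustering, of the class names and of the outline of the striatum. A class is therefore called "like" its cell type. The outlined striatum held 14513 and 11128 medium spiny neuron-like cells in young sections and 11603 and 11176 in aged sections. Levels are given as transcripts of a gene per 10000 transcripts of all panel genes, summed over the cells of a class. Probes of different genes differ in number and in efficiency, so equal values of both receptors do not mean equal amounts of RNA.

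In striatal spiny neuron-like cells both receptors stood at similar levels. Drd1 was at 73.4 and 75.8 transcripts per 10000 in young sections and at 66.9 and 68.6 in aged sections. Drd2 was at 73.4 and 74.1 in young sections and at 56.9 and 74.1 in aged sections. The first aged section was the lowest for both, and it was also the shallowest section. The ratio of Drd1 to Drd2 transcripts was 1.001 and 1.023 in young sections and 1.176 and 0.925 in aged sections. These cells held 56.8% to 62.5% of all Drd1 transcripts of a section and 60.8% to 66.7% of all Drd2 transcripts.

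Most spiny neuron-like cells with several receptor transcripts carried mainly 1 of the receptors. Among the 4023 to 9708 cells per section with at least 5 transcripts of Drd1 and Drd2 together, the share with a Drd1 fraction under 0.1 was 37.0% and 36.2% in young sections and 34.5% and 37.8% in aged sections. The share with a Drd1 fraction of at least 0.9 was 39.4% and 37.3% in young sections and 37.4% and 33.4% in aged sections. Fractions from 0.4 to 0.6 held 3.46% to 5.02% of these cells. Both ends of the distribution were thus filled and its middle was nearly empty in all 4 sections.

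A receptor was counted as detected at 3 or more transcripts in a cell. By this rule, Drd1 was detected in 47.2% and 42.9% of spiny neuron-like cells of the young sections and in 31.4% and 39.6% of those of the aged sections. Drd2 was detected in 38.3% and 36.7% in young sections and in 25.1% and 35.3% in aged sections. Both were detected in 6.57%, 5.81%, 2.30% and 5.41%, in the same order. If the receptors were placed in cells independently, the product of their shares would be larger, and the observed share was 0.29 to 0.39 of it. Of cells with either receptor, those with both were 8.32% and 7.87% in young sections and 4.25% and 7.79% in aged sections.

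Co-detection rose with the number of transcripts in the cell. In cells of 100 to 200 transcripts, cells with both receptors were 0 of 496 and 0 of 443 cells with either in young sections, which allows up to 0.605% and 0.677% by counting error alone, and 0.336% and 0.434% in aged sections. Between 200 and 400 transcripts this share was 1.43% to 1.98%, and between 400 and 800 it was 5.14% to 6.57%. Between 800 and 1600 it reached 13.7% and 17.1% in young sections and 18.8% and 21.4% in aged sections. Cells with more transcripts also carried markers of other classes more often. The share of spiny neuron-like cells with at least 3 markers of another class rose over the same steps from 13.4% to 15.6% of cells in the first to 54.5% to 59.8% in the last. This rule was not adjusted for depth, so the share tends to rise with transcripts by itself. When each cell of at least 200 transcripts was thinned to 200, which left 12138 and 8873 young and 7580 and 8616 aged cells, the share with both of those with either fell to 0.497% and 0.727% in young sections and 0.630% and 1.04% in aged sections. Without the cells that carried markers of another class it was 6.23%, 6.13%, 3.34% and 6.02% before thinning. Leaving those cells out also took out a larger share of the deep cells. The part of overlapping cells in co-detection was not tested.

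**Figure D1:**
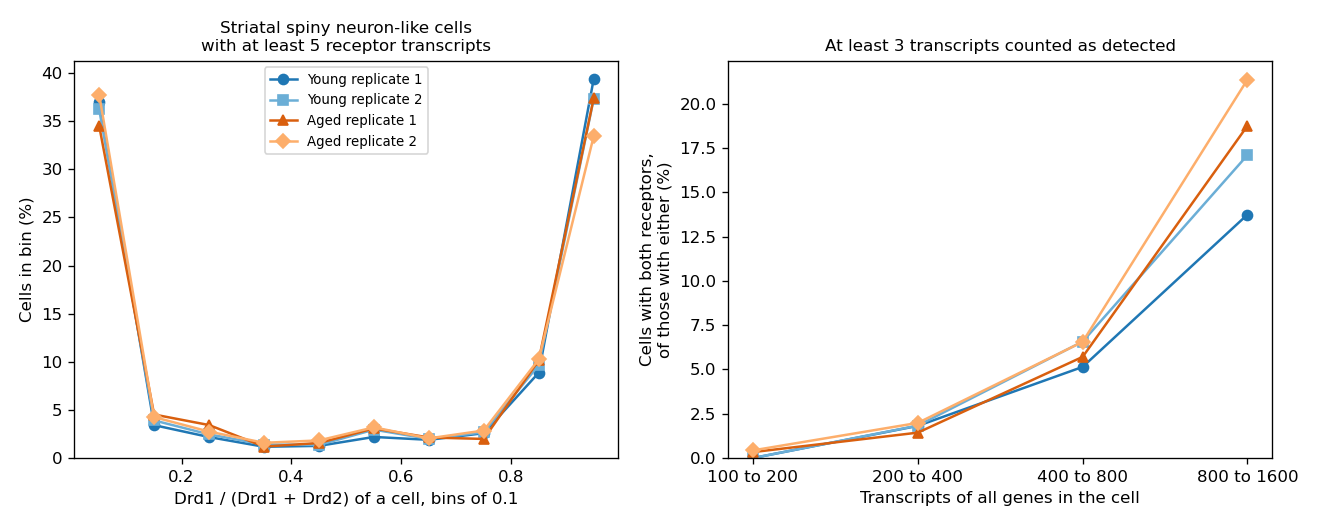
Co-detection of Drd1 and Drd2 in striatal spiny neuron-like cells, 1 line per section. The left panel plots the percentage of cells in each bin of the Drd1 fraction of receptor transcripts, with at least 5 of them in a cell, and the lowest and highest bins each held 33.4% to 39.4%. The right panel plots the percentage of cells with both receptors among cells with either, against the total transcripts of the cell, and it rose in every section to between 13.7% and 21.4%.

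The same values were read in classes other than neurons. Glia and vascular cells are not known as a main source of either receptor, yet inside the striatum 5 non-neuronal classes carried Drd1 at 11.2 to 41.9 transcripts per 10000 and Drd2 at 15.8 to 46.2. Relative to the spiny neuron-like cells of the same section this was 16.7% to 56.0% for Drd1 and 27.7% to 66.4% for Drd2. Other spiny neuron genes stood at much the same share of the spiny level in these classes, with 15.1% to 58.4% for Penk and 14.6% to 53.9% for Rgs9. At least 500 µm outside the striatum, astrocyte-like cells had 0.79 to 0.88 Drd1 transcripts per 10000 and 0.74 to 1.34 Drd2 transcripts. In the striatal non-neuronal classes, cells with both receptors were 3.26% to 9.51% of those with either. The 4.25% to 8.32% in spiny neuron-like cells lay within that range, over cells of all depths. At 800 to 1600 transcripts the spiny share lay above it, and the classes were not matched for depth.

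Spiny neuron-like cells were called Drd1-side when they held at least 3 Drd1 transcripts and these were at least 80% of both receptors, and Drd2-side by the reverse rule. Drd1-side cells were 39.3% and 35.3% of the class in young sections and 26.8% and 31.8% in aged sections. Drd2-side cells were 31.5% and 29.99% in young sections and 21.6% and 29.0% in aged sections. Of all cells on a side, the Drd1 side took 55.5%, 54.0%, 55.4% and 52.3%. A Drd1-side cell held a median of 5 to 8 Drd1 transcripts and a Drd2-side cell a median of 5 to 10 Drd2 transcripts. Drd2 was at 0 in 71.7% to 82.8% of Drd1-side cells, and Drd1 was at 0 in 83.3% to 88.4% of Drd2-side cells. Among cells of at least 200 transcripts thinned to 200, the Drd1 side took 47.7%, 47.8%, 51.2% and 44.2%, so the larger side turned to Drd2 in 3 sections and stayed Drd1 in the first aged section. This setting changed both the cells and their depth.

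The genes that were not used to pick the sides were then compared between them, with the section as a block. Of 381 genes, 57.7% passed an adjusted p of 0.05 (edgeR quasi-likelihood test, Benjamini-Hochberg adjustment), 104 of them higher in Drd1-side cells (27.3%) and 116 lower (30.4%), so a call by itself was common here. Penk stood at 46.3, 34.6, 53.6 and 40.9 transcripts per 10000 in Drd1-side cells of the first and second young and the first and second aged section. In Drd2-side cells it stood at 644, 614, 608 and 593. Penk was 15.01-fold higher on the Drd2 side (log2 change of Drd1-side over Drd2-side cells −3.91, SE 0.08, adjusted p 2.76e-13 by edgeR with Benjamini-Hochberg adjustment, higher in 4 of 4 sections). Gpr6, an orphan receptor known from indirect-pathway neurons, averaged 14.1 ± 2.72 on the Drd2 side and 2.89 ± 1.07 on the Drd1 side (SD, n = 4), 5.17-fold higher on the Drd2 side (adjusted p 2.58e-11 by edgeR with Benjamini-Hochberg adjustment). In the 255 to 782 cells per section that held at least 3 transcripts of each receptor without either side's share, Penk stood at 236 to 276, between the levels of the sides.

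The other signalling genes differed by less than Penk and Gpr6. The list of 13 dopamine, cAMP and receptor signalling genes includes Penk and Gpr6. Of its 13 genes, 3 were higher in Drd1-side cells, 8 were lower and 2 did not pass, with a median log2 change of −0.09 against −0.01 over all 381 genes. Htr2c, a serotonin receptor, was lower on the Drd1 side by 0.74 on the log2 scale. Pde10a and Rgs9, a phosphodiesterase and a regulator of G protein signalling of spiny neurons, differed by −0.19 and −0.09. Rgs4, Grm5 and Grin2b were the 3 that were higher, by 0.05 to 0.11.

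On the Drd1 side the largest folds were in Fxyd5, a regulator of the sodium pump, and Stmn2, a regulator of microtubules. Fxyd5 was 3.20-fold higher there, at 1.53 ± 0.52 against 0.46 ± 0.12 transcripts per 10000 (SD, n = 4). Stmn2 was 3.18-fold higher, at 26.1 ± 3.16 against 7.75 ± 1.29. Arl4a and H2-Ab1 were 1.67-fold and 1.65-fold higher. On the Drd2 side Penk was followed by Igkc, Gpr6, Ms4a7 and Ano1 at 3.38-fold to 5.18-fold. Igkc, Ms4a7 and H2-Ab1 are known from immune cells, and each stood at a low level in spiny neuron-like cells, with Igkc at 2.26 ± 0.58 on the Drd2 side and 0.47 ± 0.09 on the Drd1 side. Whether these low counts came from their own transcripts was not tested.

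Cell by cell, Drd1 and Drd2 ran against each other. Over striatal spiny neuron-like cells, with the log of 1 plus the level per 10000, the mean of Pearson's r over the 4 sections was −0.555, and it ranged from −0.615 to −0.479. The genes most like Drd1 were Stmn2 (mean r 0.32), Scg2 (0.22), Ndrg4 (0.20), Spock2 (0.18) and Cntn1 (0.18). Among the genes most like Drd2 were Penk (0.64), Gpr6 (0.30), Scn4b (0.21) and Pde10a (0.21). The cells share libraries and differ in depth, so these are descriptions. Over 36 levels of classes in sections the receptors went together instead, with r = 0.78. There Drd1 was most like Pde10a (0.97) and Rgs9 (0.96), and Drd2 most like Penk (0.93) and Rgs9 (0.84).

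The map applied the rule for sides to kept cells of every class. It showed both sides throughout the striatum. Drd1-side cells stood alone in a band outside it, in compact patches and along parts of the ventral edge. Among striatal spiny neuron-like cells on a side, the nearest other such cell lay a median of 15.8 to 18.6 µm away. Among the 10 nearest such cells, the share on the Drd1 side was 54.1% to 59.1% around Drd1-side cells and 50.8% to 52.0% around Drd2-side cells. These shares differed by 6.56 and 5.02 points in young sections and by 7.97 and 3.37 in aged sections. Sides were therefore mixed at this scale, with a small excess of like neighbours in all 4 sections. The cells counted include some of the compact clumps described below, and the Drd1-side share also moved with position. The part of either in this excess was not tested.

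**Figure D2:**
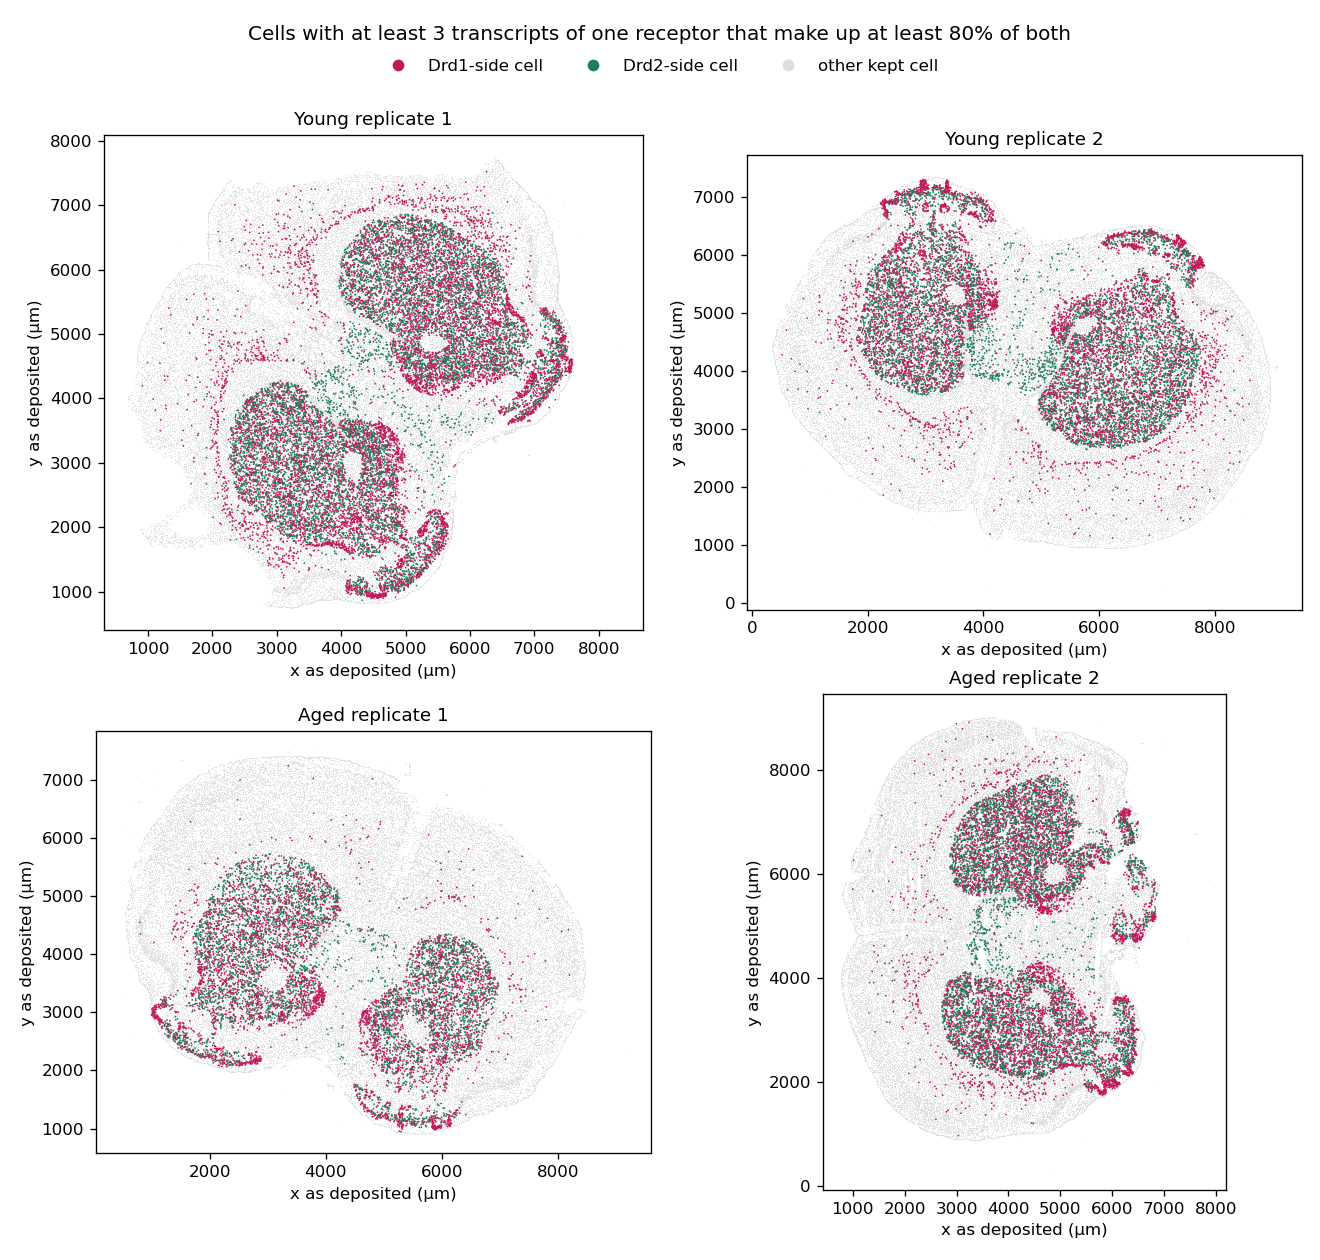
Positions of kept cells in the 4 sections, in µm as deposited and in the orientation of each section. Drd1-side cells (at least 3 Drd1 transcripts, at least 80% of both receptors) and Drd2-side cells are drawn from every class. They are mixed within both striata, and Drd1-side cells stand without Drd2-side cells in a band outside the striatum and in ventral patches.

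Within the striatum both receptors fell from dorsal to ventral, Drd2 more than Drd1. The axis was set perpendicular to the line between the centres of both striata. It pointed away from the mean position of neuron-like cells in neither the spiny nor the Gad2-rich class. Each striatum was parted at the middle of its extent. In the dorsal part Drd2 stood at 86.3 and 83.5 transcripts per 10000 of spiny neuron-like cells in young sections and at 71.1 and 85.1 in aged sections. In the ventral part it stood at 61.6, 62.7, 45.9 and 60.5 in the same order. No ventral value reached any dorsal value. Drd2 was 1.52-fold lower ventrally (log2 change −0.60, SE 0.04, adjusted p 1.96e-05 by edgeR with the section as a block and Benjamini-Hochberg adjustment), and of 383 genes 17.5% were called lower there.

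Drd1 stood at 76.1, 81.1, 71.5 and 71.4 in the dorsal part and at 71.0, 69.3, 63.3 and 65.0 in the ventral part. It was lower ventrally in 4 of 4 sections by a log2 change of −0.26 (SE 0.05, adjusted p 0.00342 by edgeR with Benjamini-Hochberg adjustment). Among all 383 genes, 46 changed by more than Drd2 and 142 by more than Drd1, so a change of the size of that of Drd1 was common. Of the 13 signalling genes, 5 were lower ventrally (Rgs4, Scn4b, Pde10a, Rgs9 and Arpp21), 2 were higher (Oprm1, the mu opioid receptor, and Htr2c) and 6 did not pass, where 17.5% of all genes were lower and 18.5% higher. Scn4b, a sodium channel subunit of spiny neurons, changed by −1.06 and Pde10a by −0.86. Their list had a median log2 change of −0.15 against −0.03 over all genes.

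The balance of sides moved with position as well. Of cells on a side, the Drd1 side took 51.8%, 52.9%, 50.4% and 50.1% in the dorsal part and 58.9%, 55.4%, 59.9% and 55.1% in the ventral part. With a second cut between medial and lateral, the ventral medial part was the lowest in Drd2, at 52.1 and 52.5 per 10000 in young sections and 37.0 and 46.6 in aged sections. The Drd1 side took 61.0%, 58.3%, 65.0% and 57.5% of that part. The dorsal lateral part averaged 84.21 ± 10.53 Drd2 and 75.2 ± 3.90 Drd1 transcripts per 10000 (SD, n = 4).

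Measured in segments of 500 µm from the dorsal edge, Drd2 averaged 86.0 ± 5.60 in the first, 73.9 ± 9.32 in the third and 49.8 ± 7.67 in the fifth (SD, n = 4). The fall of Drd2 did not continue to the last segment in every section. From the fifth to the sixth, Drd2 went from 51.1 to 61.2 and from 54.5 to 62.8 in young sections, from 38.6 to 43.6 in the first aged section and from 55.1 to 49.3 in the second. Drd1 averaged 78.8 ± 5.32 in the first segment and 61.7 ± 5.83 in the sixth.

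**Figure D3:**
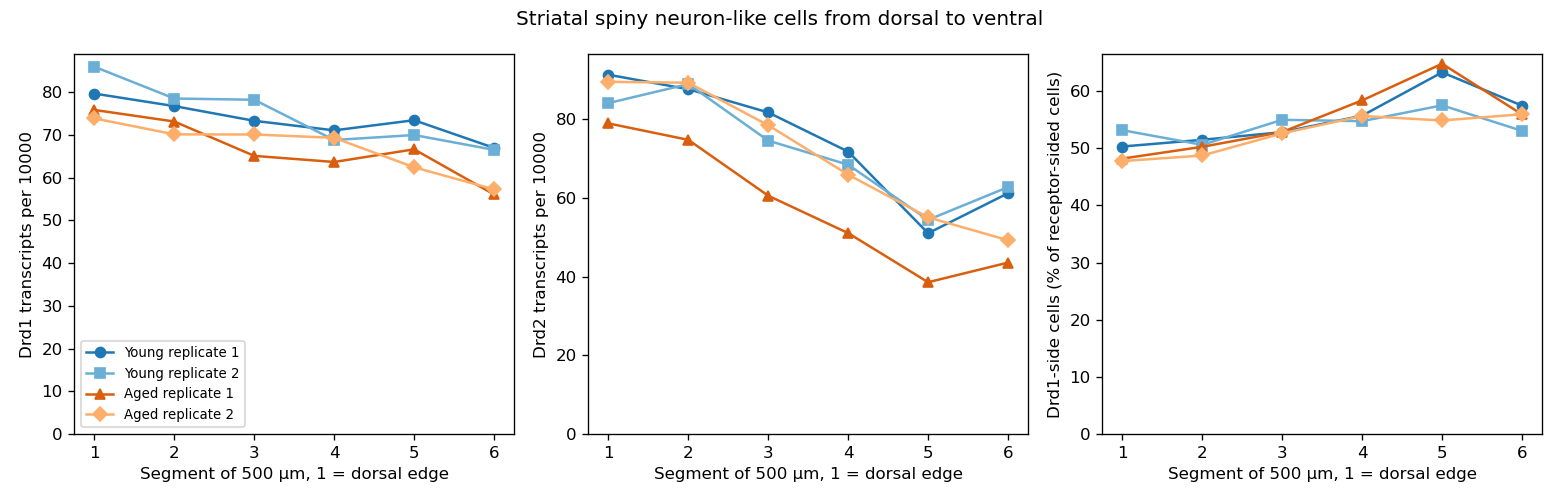
Drd1 and Drd2 transcripts per 10000 and the Drd1-side share of cells on a side, in striatal spiny neuron-like cells of 6 segments of 500 µm from the dorsal edge, 1 line per section. Drd2 ran from 79.0 to 91.3 in the first segment down to 38.6 to 55.1 in the fifth, and Drd1 changed less.

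The spiny neuron-like cells of areas apart from both striata, which lay ventrally in the map, had less Drd2 for their Drd1. There 2134 to 3118 cells per section carried Drd1 at 74.7 and 73.8 transcripts per 10000 in young sections and at 64.2 and 60.5 in aged sections. Drd2 stood at 62.7, 50.1, 44.8 and 50.96. The ratio of Drd1 to Drd2 was 1.19 to 1.47, above the ratio in the striatum of the same section each time. The areas were set by their share of spiny neuron-like cells and not by an atlas.

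Compact clumps of cells stood out by Drd1 without Drd2. They belonged to a cluster led by Dlx6os1, a noncoding RNA of the Dlx locus, which reached too few markers of any class to be named in the finer clustering. In the broader clustering that set the classes, most cells of this cluster fell in the spiny neuron-like class, so the striatal spiny values they are set beside include some of them. Cells of this cluster with at least 10 others of it within 50 µm numbered 1031 and 799 in young sections and 1056 and 1219 in aged sections, in 9 to 14 clumps of at least 20 cells per section. Drd1 stood at 112.7 and 119.3 transcripts per 10000 in the young and at 102.5 and 102.3 in aged sections, 1.49-fold to 1.58-fold of the level in striatal spiny neuron-like cells. Drd2 stood at 0.15, 0.44, 0.69 and 0.55. The clumps were picked after their place on the map and their receptor levels had been seen, so these values are given without a test, and whether they were islands of Calleja was not tested.

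The clump cells were also small and poor in Penk. Their median volume was 338 to 389 µm³, against 733 to 801 µm³ for striatal spiny neuron-like cells. Penk stood at 2.15 to 3.75 transcripts per 10000 in the clumps and at 263 to 284 in the spiny neuron-like cells. Rgs9 was at 346 to 457 and thus above the spiny range of 254 to 317, and Meis2, a transcription factor of spiny neurons, was at 3.84 to 8.32 against 143 to 149. Of clump cells, 43.5%, 47.6%, 31.3% and 30.1% were on the Drd1 side. On the Drd2 side were 0 cells in 3 sections, which allows up to 0.375% of clump cells, and 0.082% in the second aged section. Cells of the same cluster outside clumps had less Drd1, at 45.9 to 82.9, and more Drd2, at 7.54 to 12.9. Between 72 and 446 clump cells per section lay inside the striatal outline, and without the cluster the striatal spiny neuron-like class had 10930 to 14015 cells and Drd1 at 66.0 to 75.6. Leaving the cluster out changed no call for either receptor by age or from dorsal to ventral.

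In Gad2-rich neuron-like cells, which were outside the spiny class, the receptors were unequal and depended on place. The leading genes of this cluster began with Ano1 and Sst, and genes of GABA transport and synthesis, Slc32a1 and Gad2, came after them. Inside the striatum, 514 to 795 such cells per section carried Drd2 at 59.1 and 102.6 transcripts per 10000 in young sections and at 40.4 and 67.8 in aged sections. Drd1 stood at 13.1, 11.2, 12.8 and 11.8, at the lower end of the range of the striatal non-neuronal classes. Between both striata, 2294 to 3304 cells per section had 13.4 to 16.5 Drd2 and 3.81 to 4.50 Drd1 transcripts per 10000, a Drd2 to Drd1 ratio of 3.04 to 3.78. In neuron-rich areas outside the striatum the order was the reverse, with Drd1 at 5.89 to 9.17 and Drd2 at 1.43 to 2.41.

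A few large cells held most of that striatal Drd2 in 3 of 4 sections. Cells with at least 20 Drd2 transcripts, a limit set after the counts had been seen, were 141 of 2504 striatal Gad2-rich neuron-like cells (5.63%), and over all sections they held 71.5% of the class's Drd2 transcripts. By section they held 79.05%, 82.6%, 19.5% and 64.0%, the young sections first. They numbered 50 and 53 in young sections and 7 and 31 in aged sections, of which the section with 7 was the shallowest. These cells held a mean of 50.6, 53.3, 26.0 and 36.7 Drd2 transcripts and 0 to 0.53 Drd1 transcripts, and 8 of the 141 had at least 3 Drd1 transcripts. Their median volume was 1576 µm³ against 758 µm³ for the rest. Because the limit is on raw counts, it favours large cells with many transcripts by itself. Median total transcripts were 1743, 1448, 1174 and 1143 in these cells and 540, 422, 294.5 and 405 in the rest. The same limit was passed by 748, 293, 15 and 211 striatal spiny neuron-like cells, in the same order of sections. Sst, a peptide of another interneuron type, was at 4.69 to 10.7 transcripts per 10000 in the cells past the limit and at 166 to 203 in the rest of the class. Gad2 was lower in them as well, at 73.9 to 104 against 111 to 165 in the rest. The panel used here does not include Chat, the gene of acetylcholine synthesis, and whether these were cholinergic interneurons was not tested.

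**Figure D4:**
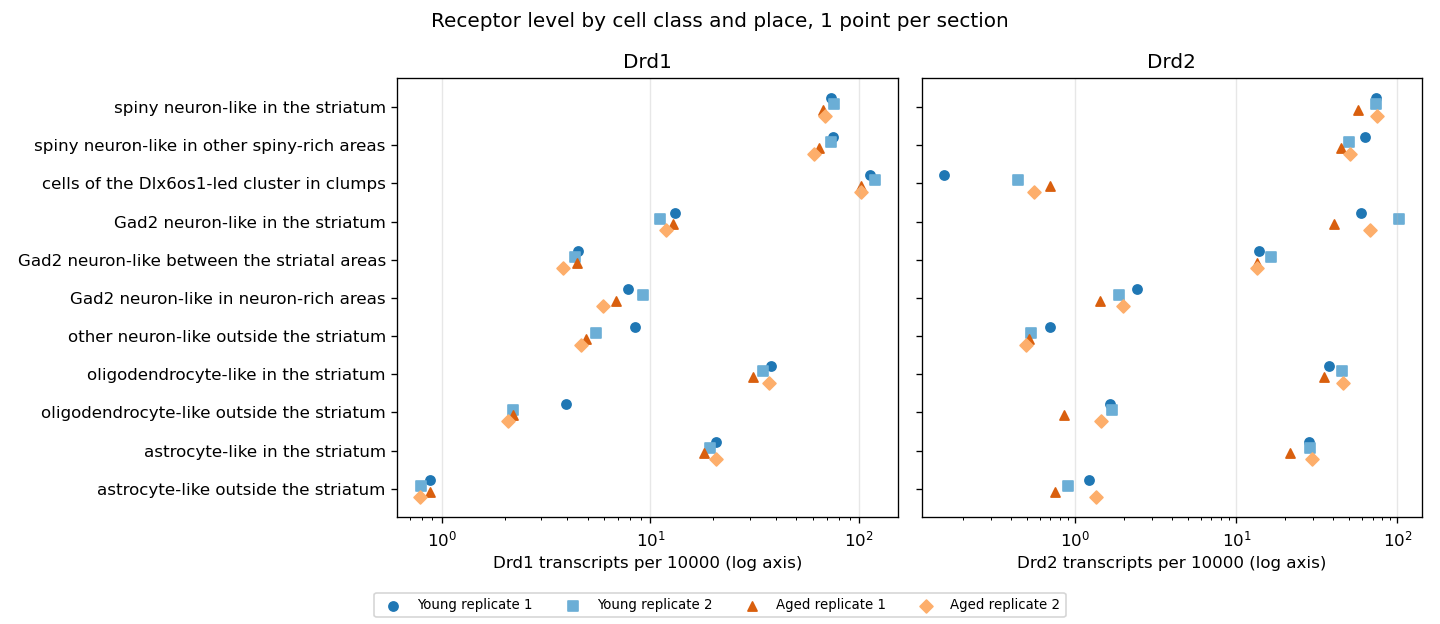
Drd1 (left) and Drd2 (right) transcripts per 10000 by cell class and place on log axes, 1 point per section. Spiny neuron-like cells are high in both receptors, clump cells have Drd1 above 102 with Drd2 below 0.70, striatal Gad2-rich neuron-like cells have Drd2 far above Drd1, and non-neuronal classes are higher inside than outside the striatum for both.

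All neuron-like cells that were not in the spiny class were compared inside and outside the striatum, with the section as a block. The parts differed in cell class as well as in place. Inside, Gad2-rich cells held most transcripts of both receptors, and outside, the remaining neuron-like cells held most Drd1 transcripts. Place and cell class therefore cannot be told apart in this contrast. The Gad2-rich cells between both striata, which belong to the outside part, stood above its Drd2 level in every section. Drd2 stood at 58.8, 100.7, 40.9 and 70.1 transcripts per 10000 inside and at 3.37, 3.11, 2.34 and 2.81 outside. It was 23.2-fold higher inside (log2 change 4.53, SE 0.13, adjusted p 2.77e-11 by edgeR with Benjamini-Hochberg adjustment), the largest change of the 383 genes. Without the cells of at least 20 Drd2 transcripts, a limit on Drd2 itself that lowers its level, the log2 change was 3.20. The remaining striatal Gad2-rich cells had Drd2 at 14.7 and 23.4 in young sections and at 33.6 and 28.9 in aged sections. The limit is on raw counts and took out fewer cells in the shallower aged sections, so these levels cannot be compared between ages. The striatal non-neuronal classes had Drd2 at 15.8 to 46.2. Drd1 stood at 13.5, 11.8, 13.8 and 11.9 inside and at 7.53, 5.68, 5.14 and 4.73 outside, 2.31-fold higher inside (log2 change 1.21, SE 0.11, adjusted p 5.46e-07 by edgeR with Benjamini-Hochberg adjustment). Of 383 genes 24.3% were called higher inside and 28.7% lower. The striatal non-neuronal classes had Drd1 at 11.2 or more, and the part of such signal in the difference of either receptor was not tested. Among the 13 signalling genes 7 were higher inside, 4 lower and 2 did not pass, with a median log2 change of 0.33 against −0.03 over all genes.

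Outside the striatum, the remaining neuron-like cells carried Drd1 with little Drd2. In 11731 to 15375 cells per section Drd1 stood at 8.39 and 5.47 transcripts per 10000 in young sections and at 4.90 and 4.63 in aged sections. Drd2 stood at 0.70, 0.53, 0.52 and 0.50. Striatal spiny neuron-like cells exceeded these by 8.76-fold to 14.8-fold for Drd1 and by 105-fold to 150-fold for Drd2.

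In these remaining neuron-like cells Drd1 was highest beside white matter, outlined here as areas rich in oligodendrocyte-like cells. In the first 150 µm from areas rich in oligodendrocyte-like cells, Drd1 stood at 19.6 and 18.3 transcripts per 10000 in young sections and at 13.1 and 11.2 in aged sections. In the next 150 µm it stood at 10.01, 8.89, 6.54 and 7.46. Between 1050 and 1200 µm it was 6.41 in the first young section and 1.53 to 2.44 in the other sections. Cells with at least 3 Drd1 transcripts were 20.3%, 13.3%, 4.13% and 6.71% in the first bin. Such shares depend on depth, and median transcripts per cell in that bin were 694.5, 514.5, 324.5 and 504 in the same order. A difference between ages in these shares was not tested. In the bin that began at 1350 µm Drd1 was 2.59 to 7.64, with 339 to 856 cells. Drd2 averaged 0.45 to 0.85 in every bin and showed no such band. Neither the cortex nor its layers were outlined. Distance was taken from any area outlined as white matter, so cells of other regions can fall in the same bins.

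**Figure D5:**
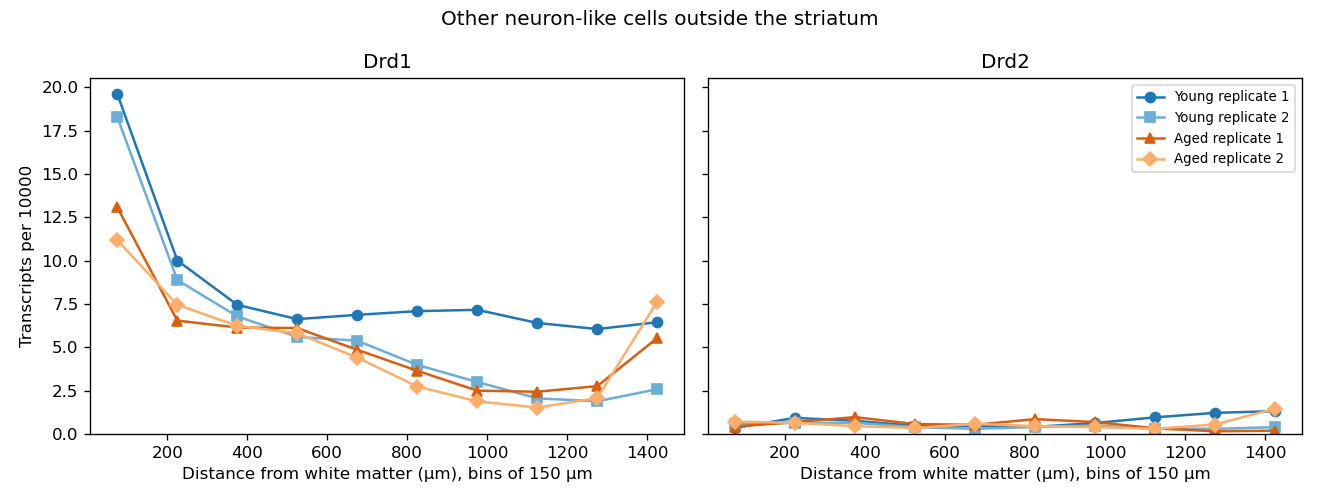
Drd1 (left) and Drd2 (right) transcripts per 10000 in neuron-like cells outside the striatum that were in neither the spiny nor the Gad2-rich class, in bins of 150 µm from white matter, 1 line per section. Drd1 was highest in the first bin of all 4 sections, at 11.2 to 19.6, while Drd2 stayed near the bottom of the same axis.

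The change from 2 to 18 months was tested in striatal spiny neuron-like cells over the sections listed above. Drd1 was lower in both aged sections than in both young sections, by a log2 change of −0.11 (SE 0.16, 95% interval −0.44 to 0.22, adjusted p 0.948 by edgeR with Benjamini-Hochberg adjustment). Drd2 overlapped between ages and changed by −0.15 (SE 0.17, 95% interval −0.50 to 0.21, adjusted p 0.948 by edgeR with Benjamini-Hochberg adjustment). Of 383 genes 0% were called, 23 had an unadjusted p under 0.05, and DESeq2 and limma called 0 as well. In 17.2% of genes both aged sections stood below both young sections, and in 18% both stood above, so the order of the Drd1 values is a common one. The first aged section carried the Drd2 value. Without that section the Drd2 change was −0.03, and without the second aged section it was −0.31. Of the 13 signalling genes 0 passed, with a median log2 change of −0.10.

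A spiny neuron-like cell held a mean of 4.16 ± 0.53 Drd1 transcripts at 2 months and 2.62 ± 0.67 at 18 months (SD, n = 2 sections each), and total transcripts per cell were lower in both aged sections too. With counts per cell volume in place of counts per transcripts, the log2 change was −0.59 for Drd1 and −0.60 for Drd2 (adjusted p 0.528 for both by edgeR with Benjamini-Hochberg adjustment). From young to aged sections the share of spiny neuron-like cells with Drd1 changed by −9.54 percentage points and the share with Drd2 by −7.28, each with a two-sided exact permutation p of 0.3333, the smallest that 2 against 2 sections can give. After thinning to 200 transcripts the shares with Drd1 were 24.3% and 24.4% in the young and 20.7% and 21.6% in aged sections. Those with Drd2 were 25.7% and 25.6% in the young and 19.4% and 25.7% in aged sections, which overlap. The thinned Drd1 shares gave a two-sided exact permutation p of 0.3333. How many genes separate by age after thinning was not counted. Less RNA per cell and a lower yield of the assay cannot be told apart here.

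The balance between the receptors did not show a change that the sections could resolve. The share of cells with both receptors of those with either was 8.10% ± 0.32 at 2 months and 6.02% ± 2.50 at 18 months (SD, n = 2 sections each, two-sided exact permutation p = 0.3333). The Drd1-side share of cells on a side was 54.8% ± 1.04 and 53.8% ± 2.23 (exact permutation p = 0.667). The ratio of Drd1 to Drd2 was 1.01 ± 0.02 and 1.05 ± 0.18 (exact permutation p = 1).

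The dorsal to ventral fall was also compared between ages. The change from dorsal to ventral differed between aged and young sections by 0.05 for Drd1 (95% interval −0.20 to 0.31, adjusted p 0.943) and by −0.07 for Drd2 (95% interval −0.31 to 0.18, adjusted p 0.939), on the log2 scale in the interaction term of edgeR with Benjamini-Hochberg adjustment. Here 0% of 383 genes were called, 9 had an unadjusted p under 0.05, and DESeq2 called 0.

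Outside the striatum, in neuron-like cells that were not in the spiny class, both receptors were lower in both aged sections. Drd1 changed by −0.39 (SE 0.23, 95% interval −0.89 to 0.11, adjusted p 0.802 by edgeR with Benjamini-Hochberg adjustment). Drd2 changed by −0.31 (SE 0.25, 95% interval −0.86 to 0.25, adjusted p 0.856 by edgeR with Benjamini-Hochberg adjustment). Neither passed, 0% of 383 genes were called, 20 had an unadjusted p under 0.05, and DESeq2 called 1. Both aged sections stood below both young sections in 19.6% of genes and above them in 19.8%. Of all 383 genes, 62 changed by more than Drd1 in either direction. The first young section had the highest Drd1 of the 4 in this population, and in the distance profile it alone kept Drd1 above 6 per 10000 in every bin.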

How the data were processed

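MERFISH was performed on 4 sections of 10 µm, grouped as 2 young and 2 aged by their titles. Labels inside the 2 young tables carry other numbers than the titles. The authors decoded transcripts with MERLIN, segmented cells with Vizgen software and deposited whole-number counts per gene and cell, without normalization or a filter. Cell volume, a signal from imaging in µm³, and cell position, read here as µm, were used as deposited. Their table of mean counts was used only to check the reading.

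Drd1, Drd2, Penk and Gpr6 were left out of clustering, naming and outline. Cells with at least 10 genes and 50 µm³ were scaled per 10000, log-transformed, reduced to 15 components, and clustered on 20 neighbours (Louvain, resolution 0.08). Neurons were clustered again at 0.08 for the classes and at 0.4 for the finer clustering. Clusters were named by markers at least 1.5-fold over other cells. Sections shared 0 cell identifiers. No doublet caller was run. Instead, cells with at least 3 markers of another class were left out as an alternative. The striatum consisted of 50 µm squares where at least 40% of cells within 150 µm were spiny neuron-like, in the 2 largest areas.

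Counts were summed per section and tested with edgeR 4.0.16 (TMM, filterByExpr, quasi-likelihood, Benjamini-Hochberg, threshold 0.05) in R 4.3.3, after a test on simulated counts. DESeq2 1.42.0 and limma 3.58.1 (pseudocount 1) were alternatives. Both receptors passed the filter in all 5 comparisons that tested them. Single values were compared by two-sided exact permutation over sections. The named genes were Drd1 and Drd2, Penk and Gpr6, 13 signalling genes, the 5 most like each receptor, and up to 5 per direction with the largest fold between sides. Some genes that this rule names are not reported here. The members and all lists were chosen with earlier results of these data known. Promoter windows came from RefSeq on GRCm38.p6.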

Additional observations from a re-analysis of the deposited data

How the results depend on the processing

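Over 173 alternative values of 19 results, 169 were judged unchanged and 4 turned direction. For gene tests, unchanged meant the same direction and the same side of the threshold. For shares and ratios it meant the same direction, and with a section left out also a shift under the larger SD of the age groups. Numbers of genes called were judged only by a limit on their fold. None of these 4 belonged to a result past its threshold, and the cause was not tested. The aged minus young difference in the share of cells with both receptors of those with either went from −2.08 to 0.223 percentage points after thinning to 200 transcripts. The difference in the Drd1-side share of cells on a side went from −0.936 to 0.137 with at least 1 transcript counted as detection, and over sections left out in turn it ranged from −2.51 to 0.640, the highest being without the second aged section. The difference in the Drd1 to Drd2 ratio went from 0.0386 to −0.0867 without the first aged section, and to 0.164 without the second. Leaving out 1 section at a time moved the age change in striatal spiny neuron-like cells over −0.20 to −0.04 for Drd1 and −0.31 to −0.03 for Drd2, and the share with both of those with either over −3.85 to −0.308 points. The dorsal to ventral change stayed within −0.28 to −0.22 for Drd1 and −0.62 to −0.59 for Drd2, and between the outer parts of a cut into 3 it was −0.31 and −0.84. With the replicate block, the numbers in the titles, the age change was −0.11 for Drd1 and −0.15 for Drd2 in spiny neuron-like cells and −0.38 and −0.31 outside, with 0 calls as before. Sections of the same number deviated in opposite directions (r = −0.36 and −0.18), so the numbers gave no pairing. With the numbers crossed, which was chosen after seeing the data, 3 genes were called higher and 3 lower in spiny neuron-like cells and 0 outside. Depth limits co-detection, with median transcripts per cell from 215 to 400, and 2 sections per age limit every comparison of ages.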
